A study of Mus musculus with 32 samples.

Results

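Ddx3x and Eif2s3x are X-linked genes whose proteins act at the start of protein synthesis, and both are known as genes that stay expressed on the inactive X chromosome of mouse cells. They were chosen by name, with earlier results of these data known. Both were found in all 4 deposited tables, as 2 of 1006 X-linked genes listed in any table. The samples were mouse XEN cells, stem cells of the extraembryonic endoderm grown in culture, from a 129S1/SvImj X JF1/Ms cross whose sequence differences separate reads of the active X (Xa) from those of the inactive X (Xi). The 32 RNA samples formed 12 groups. These were XistpA (4 samples), XRR_KO (2 samples, 1 from each of 2 clones) and XRRa_KO (3), with WT (3) as their reference. XRRb_XiKO (2) was set against XRRb_XaKO (2), and XRRc_XiKO (2) against XRRc_XaKO (2), where the names say which X carries the change. Rad21 degron cells treated with dTAG (4 samples from 2 clones) were set against the same cells with DMSO (4 samples from 2 clones), and Ctcf degron cells treated with dTAG for 48 h (2) against DMSO for 48 h (2). dTAG compounds bring a tagged protein to a ubiquitin ligase, and the tagged protein here was the cohesin subunit Rad21 or the insulator protein Ctcf. The labels do not say what XistpA, XRR, XRRa, XRRb and XRRc stand for, nor whether the lines other than the XRR and Rad21 ones are single clones.

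Each group was deposited as 1 merged value per gene and allele in FPKM, which scales fragments per length and per library, so no value below has an SD, no difference has a replicate check or a p-value, and the depth is unknown. Levels were compared within a table. Across tables only the Xi share, 100 x Xi / (Xa + Xi), was set side by side. A level is said to have risen or fallen when log2(FPKM + 0.5) differed by 1 or more, and a share when it differed by 10 percentage points or more. A pseudocount of 0.5 understates the changes of low genes. The tables list X-linked genes, so the usual XEN markers, Rad21 and Ctcf were not analysed here, and the depletion of Rad21 and Ctcf was not checked. Of 15 marker genes looked up, 2 were listed, both trophoblast genes. Plac1 reached at most 3.60 FPKM on Xa, and Esx1 was above 0 in 4 groups, at most at 2.92 FPKM. Their part in the results was not tested. Xist RNA, which spreads along the inactive X and starts its silencing, had a listed 0 on Xi in XistpA and stood at 1.18 FPKM in XRR_KO and 7.86 FPKM in XRRa_KO, against 15.5 FPKM in WT. The separate Tsix entry had a listed 0 on Xi in XistpA and XRR_KO and 16.5 FPKM in XRRa_KO, against 31.2 FPKM in WT. How reads of these unstranded libraries were divided between Xist and Tsix is not known.

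X inactivation in female cells silences most genes of the chosen chromosome, and a minority, the escape genes, stay transcribed from it. Ddx3x encodes a DEAD-box RNA helicase that helps the small ribosomal subunit move along structured leaders of mRNAs. Eif2s3x encodes the gamma subunit of initiation factor eIF2, which binds GTP and brings the initiator tRNA to the ribosome. Each gene has kept a partner on the mouse Y chromosome, Ddx3y and Eif2s3y.

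The promoters of both genes are shown because they are read from Xi as well as Xa, while most genes around them are not. The windows run from 250 bases before to 50 bases after the start of each gene, 5′ to 3′ along the gene, from RefSeq on build GRCm38.p6. Capitals mark matches, on either strand, to a TATA-like element (TATATAA), a core of the site of CREB and ATF factors (TGACGT), a core of the site of YY1 (AAGATGG) and a GC box (GGGCGG, read as CCGCCC on the other strand). The Ddx3x window is chrX:13280772-13281071, + strand, and the Eif2s3x window is chrX:94212602-94212901, - strand.
Ddx3x: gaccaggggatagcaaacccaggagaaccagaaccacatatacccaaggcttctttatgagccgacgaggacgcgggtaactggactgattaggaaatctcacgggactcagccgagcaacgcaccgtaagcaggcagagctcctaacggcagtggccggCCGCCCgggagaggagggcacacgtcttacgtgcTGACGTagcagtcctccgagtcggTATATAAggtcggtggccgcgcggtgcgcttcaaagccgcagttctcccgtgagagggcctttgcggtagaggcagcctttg
Eif2s3x: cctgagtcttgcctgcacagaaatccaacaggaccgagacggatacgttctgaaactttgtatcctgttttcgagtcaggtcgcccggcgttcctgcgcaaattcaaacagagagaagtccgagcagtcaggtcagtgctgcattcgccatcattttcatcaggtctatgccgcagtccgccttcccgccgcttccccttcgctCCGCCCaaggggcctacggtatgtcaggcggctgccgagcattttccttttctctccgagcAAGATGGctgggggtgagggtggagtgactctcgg
The windows differed in what they hold. In Ddx3x, TATATAA began at position -32 from the start, TGACGT at -56 and the GC box at -90. In Eif2s3x, AAGATGG began at position 16 and the GC box at -46. Of 32851 promoters of the same length, 3.24% held TATATAA, 7.51% TGACGT, 6.34% AAGATGG and 35.7% GGGCGG. The Ddx3x window held 25 CpG sites and the Eif2s3x window 21, against a median of 7 over all promoters and likewise 7 over the 1223 promoters of the X. Such counts were not rare, since 81.6% of all promoters held fewer than Ddx3x and 75.2% fewer than Eif2s3x. On the X these were 91.6% and 85.4%. The motifs were chosen with the sequences in view, and a match is not evidence of binding.

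Ddx3x was among the most abundant transcripts of the inactive X. In the 5 reference groups Ddx3x on Xi stood at 45.2 FPKM in WT, 59.7 FPKM in XRRb_XaKO, 56.5 FPKM in XRRc_XaKO, 29.8 FPKM in Rad21 degron with DMSO and 19.9 FPKM in Ctcf degron with DMSO. On Xa the same groups had 81.6, 103.0, 89.6, 55.2 and 43.1 FPKM of Ddx3x. Among measured genes, those with Xa plus Xi FPKM averaging 1 or more over the groups of a table (247 to 277 genes a table), Ddx3x ranked 4th or 5th by Xi level in these groups, but only 26th to 33rd by Xa level. Over all 12 groups it made up 2.43% to 3.85% of the summed Xi FPKM.

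Eif2s3x was lower on both chromosomes, with a higher Xi share in most groups. In the same order of reference groups, Eif2s3x on Xi stood at 20.0, 33.8, 31.5, 16.4 and 8.09 FPKM, and on Xa at 28.1, 43.3, 42.4, 18.3 and 14.4 FPKM. It ranked 5th to 9th by Xi level and 54th to 69th by Xa level. Per length, Ddx3x was 1.67 to 3.81 times as abundant as Eif2s3x on Xi and 1.96 to 3.02 times as abundant on Xa over the 12 groups. The Xi share was higher for Eif2s3x than for Ddx3x in 9 of 12 groups, the exceptions being XistpA, XRRa_KO and Ctcf degron with dTAG.

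**Figure D1:**
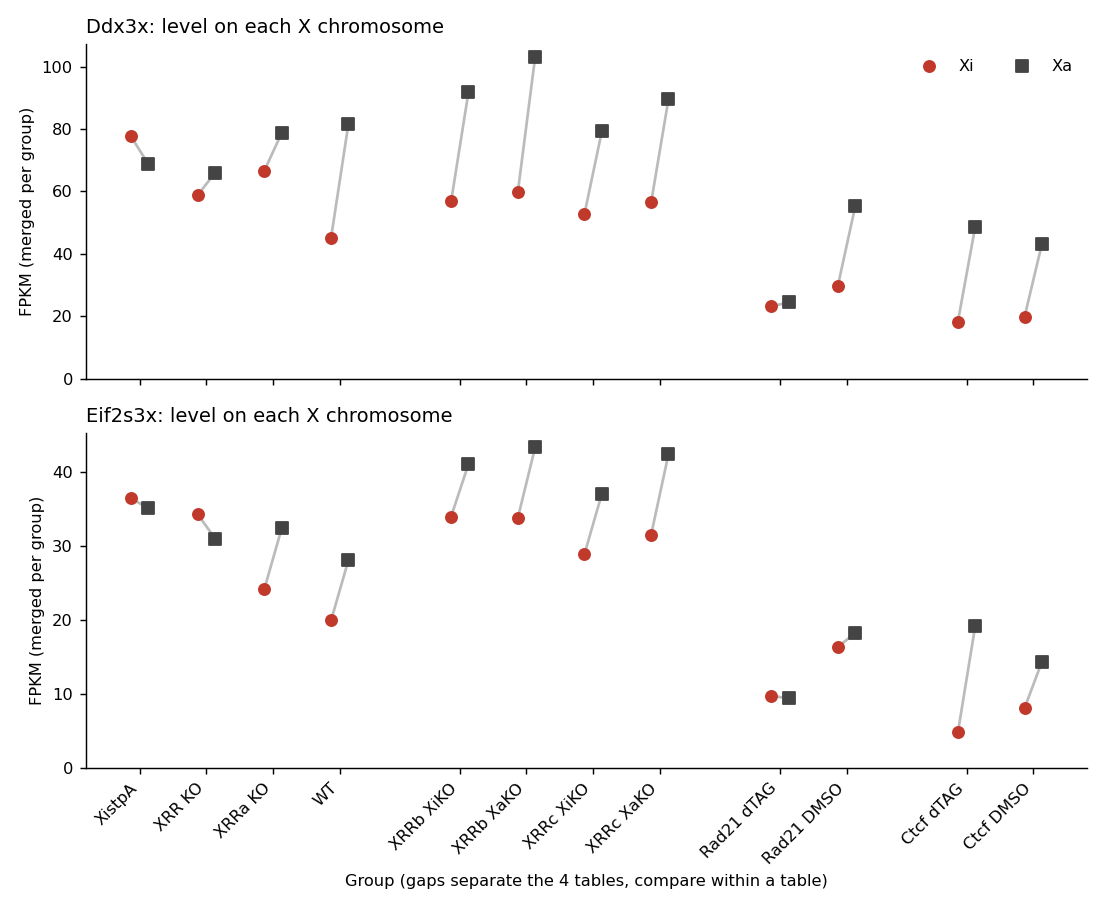
FPKM of Ddx3x (top) and Eif2s3x (bottom) on Xi (red circles) and Xa (dark squares), 1 merged value per group and allele, with gaps between the 4 tables. For Ddx3x the red point lies above the dark one in XistpA alone (77.6 FPKM on Xi and 68.7 FPKM on Xa), and for Eif2s3x in XistpA, XRR_KO and Rad21 degron with dTAG.

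Transcripts of Ddx3x showed no near-identical copy elsewhere, meaning one of 95% identity or more over at least 50% of the length. Its longest annotated transcript, of 4692 bases in 17 exons, matched the autosomal retrogene D1Pas1 at 87.0% identity over 42.9% of its length and Ddx3y at 83.8% over 44.2%. For Eif2s3x, of 3647 bases in 12 exons, the annotation holds a processed pseudogene on the X, Gm2223, identical over 37.0% of the transcript. Gm2223 was not listed in the tables, and reads from that stretch could be placed at either locus, so the Eif2s3x values are less certain than those of Ddx3x. Eif2s3y matched at 86.7% over 38.1%. No annotated gene overlaps either gene on either strand.

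Both genes were read from Xi amid neighbours that mostly stood at or near 0 there. On a gene order from RefSeq (999 of 1006 listed genes placed), Ddx3x was number 123 and Eif2s3x number 569 along the chromosome, 532 and 86 places before Xist. The deubiquitinase gene Usp9x, the nearest measured gene before Ddx3x, had 4.24 to 14.8 FPKM on Xa over the 12 groups and at most 0.327 FPKM on Xi, a share of at most 2.16%. The monoamine oxidase gene Maoa, the nearest after it, had 5.03 to 18.1 FPKM on Xa and a listed 0 on Xi in each of the 12 groups. The measured genes next to Ddx3x were thus at or near 0 on Xi. The zinc-finger gene Zfx, before Eif2s3x, had an Xi share of at most 1.01%, and Apoo, a mitochondrial cristae gene after it, at most 0.565% with 22.2 to 82.8 FPKM on Xa.

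Of the 12 measured genes within 3 places of either member, 10 had an Xi share below 3% in every group, among them Med14, Kdm6a, Pola1, Pdk3, Maged1 and Gspt2. The first exception was 1810030O07Rik, an escape gene 3 places before Ddx3x, at 10.1% to 51.8%. The second was the mitophagy receptor gene Fundc1, 2 places after it, at 27.6% in XistpA and 14.2% in XRR_KO, against 0.0781% in WT. Counting all listed genes instead, expressed or not, 6 of the 12 nearest were at 0 on Xi in all groups, and 3 of these (2010308F09Rik, Nyx and Gpr34) at 0 on both alleles.

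**Figure D2:**
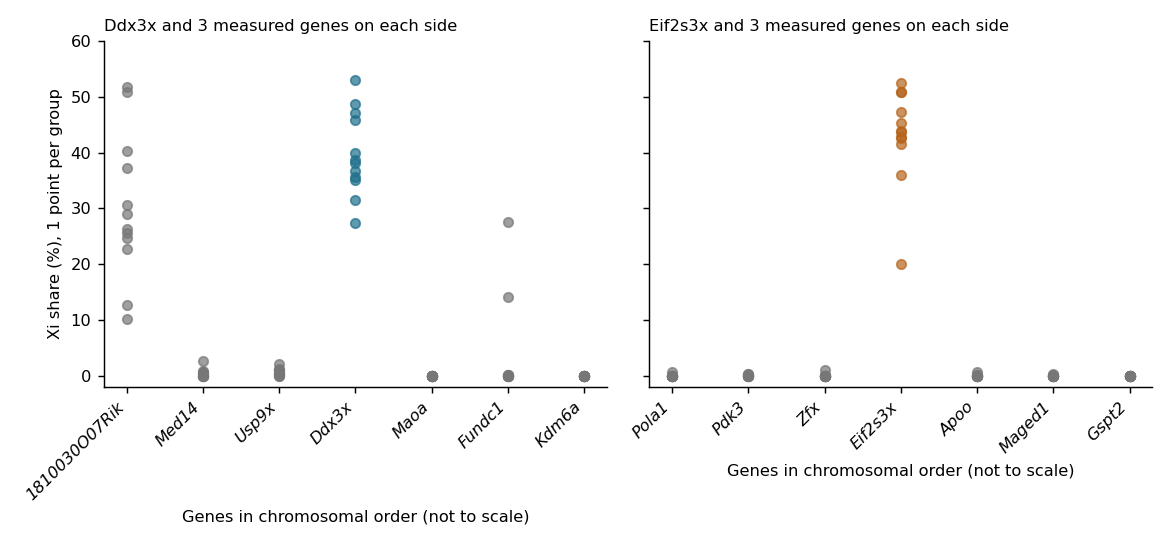
Xi share of Ddx3x (left) and Eif2s3x (right) with the 3 nearest measured genes on each side in chromosomal order, 1 point per group. Ddx3x lies between 27.3% and 53.0% and Eif2s3x between 20.0% and 52.5%, while 10 of the 12 neighbours lie below 3% in every group.

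Across the 12 groups the Xi share of Ddx3x spanned 27.3% to 53.0%, with a median of 38.5%. From low to high it was 27.3% in Ctcf degron with dTAG, 31.5% in Ctcf degron with DMSO, 35.0% in Rad21 degron with DMSO, 35.6% in WT and 36.7% in XRRb_XaKO. Above these lay XRRb_XiKO at 38.3%, XRRc_XaKO at 38.7%, XRRc_XiKO at 40.0%, XRRa_KO at 45.9%, XRR_KO at 47.1%, Rad21 degron with dTAG at 48.7% and XistpA at 53.0%. The groups from Rad21 degron with DMSO to XRRc_XiKO were close together, and the widest gap, 5.87 points, separated XRRa_KO from XRRc_XiKO. The 5 reference groups spanned 31.5% to 38.7%, and of the 7 compared groups 5 lay above that range, 1 inside it and 1 below.

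The Xi share of Eif2s3x spanned 20.0% to 52.5%, with a median of 43.8%. From low to high it was 20.0% in Ctcf degron with dTAG, 36.0% in Ctcf degron with DMSO, 41.5% in WT, 42.6% in XRRc_XaKO, 42.8% in XRRa_KO and 43.8% in both XRRb_XaKO and XRRc_XiKO. Then came XRRb_XiKO at 45.3%, Rad21 degron with DMSO at 47.3%, XistpA at 50.9%, Rad21 degron with dTAG at 51.0% and XRR_KO at 52.5%. The lowest value stood 16.0 points under the next, and the groups between 41.5% and 43.8% were close together. The reference groups spanned 36.0% to 47.3%, with 3 of 7 compared groups above, 3 inside and 1 below. The same groups were outside for both genes, except that XRRa_KO and XRRc_XiKO exceeded the range for Ddx3x only. How far the merged samples of a group spread around these shares is not known.

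**Figure D3:**
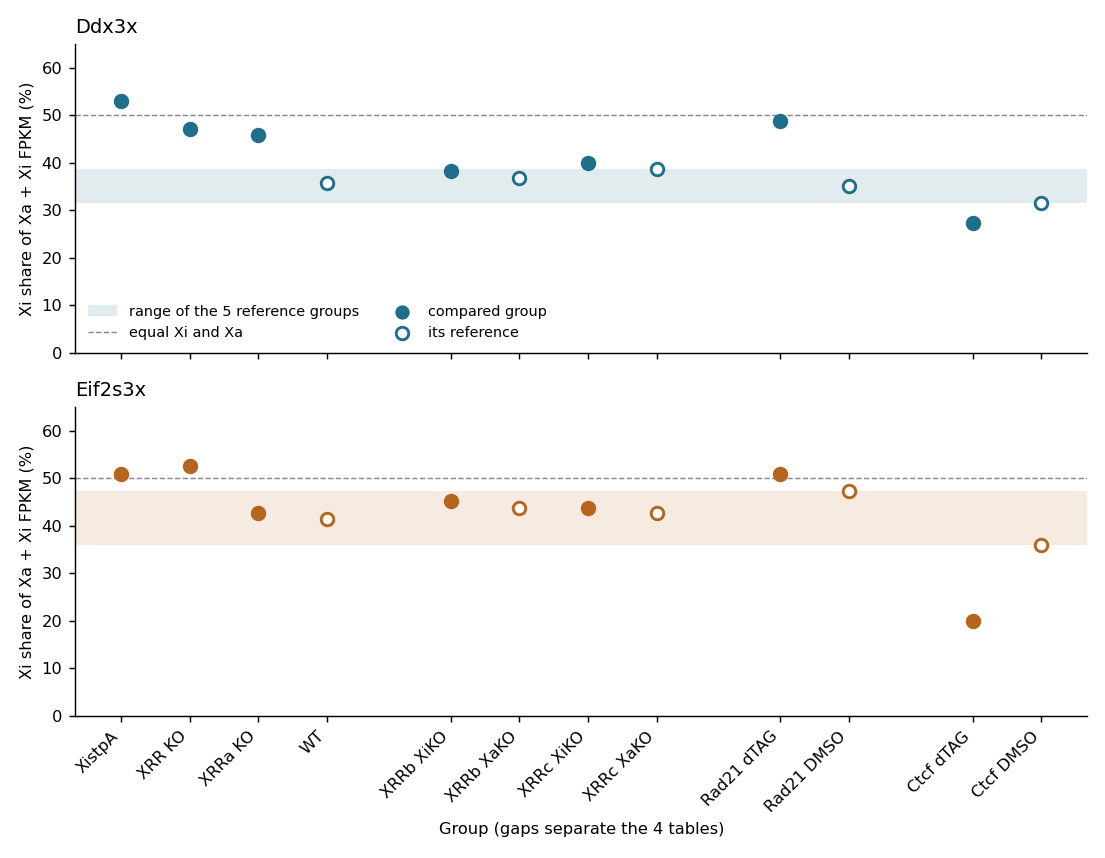
Xi share of Ddx3x (top) and Eif2s3x (bottom) in 12 groups, with filled points for compared groups, open points for their references and a band over the range of the 5 reference groups. XistpA, XRR_KO and Rad21 degron with dTAG lie above the band for both genes, and Ctcf degron with dTAG lies below it for both.

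To place the changes of both genes, 22 other genes with an Xi share of 10% or more in all 5 reference groups were used as a yardstick, without Xist and Tsix. They were chosen with these values known and are called the Xi-expressed genes below. Their median Xi share also differed between groups. It was 24.5% in Ctcf degron with DMSO and 31.7% to 36.9% in the other reference groups. In the compared groups it was 48.2% in XistpA, 48.4% in XRR_KO, 40.4% in XRRa_KO, 43.8% in Rad21 degron with dTAG and 26.0% in Ctcf degron with dTAG. XRRb_XiKO and XRRc_XiKO had 37.8% and 36.4%.

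In XistpA both genes had higher Xi levels than in WT, within the range of other Xi-expressed genes and short of the size rule. Ddx3x on Xi had 77.6 FPKM in XistpA against 45.2 FPKM in WT (log2 change 0.77), and on Xa 68.7 FPKM against 81.6 FPKM (-0.25). Its share rose by 17.4 points to 53.0%, the second highest share of any measured gene in XistpA, and its Xa plus Xi total was 146.3 FPKM against 126.8 FPKM in WT. Eif2s3x had 36.4 FPKM on Xi in XistpA against 20.0 FPKM in WT (0.85) and 35.1 against 28.1 FPKM on Xa (0.32). Its share was 50.9% against 41.5%, a difference of 9.40 points that missed the rule. The 22 Xi-expressed genes had a median Xi change of 0.88, with 7 of 22 past the size rule, and 8 of them lay below Ddx3x and 10 below Eif2s3x. Over all genes, 13.7% of 270 passed the rule on Xi, 4.44% on Xa, and 15.6% of 269 gained 10 points or more of share.

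In XRR_KO the Xi shares of both genes rose past the rule, with Xi levels again short of it. Ddx3x on Xi had 58.8 FPKM in XRR_KO against 45.2 FPKM in WT (0.38), and on Xa 66.0 against 81.6 FPKM (-0.30). Its total hardly differed, at 124.8 FPKM in XRR_KO against 126.8 FPKM in WT, while the share rose by 11.5 points to 47.1%. Eif2s3x on Xi had 34.3 FPKM against 20.0 FPKM (0.77) and on Xa 31.0 against 28.1 FPKM (0.14), and its share rose by 11.0 points to 52.5%. Xa levels of all genes had a median change of -0.19 here, and relative to it the Xi changes were 0.56 for Ddx3x and 0.95 for Eif2s3x, still under the size rule. The 22 Xi-expressed genes had a median gain of 16.0 points, and 7 of them gained less than Ddx3x and likewise 7 less than Eif2s3x. Of 270 genes, 17.0% passed the rule on Xi and 4.81% on Xa (3 rose and 10 fell, against 6 and 7 at equal median Xa FPKM, and 7 and 4 relative to the median change), and 18.3% of 268 gained 10 points or more of share.

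In XRRa_KO the share of Ddx3x passed the rule and that of Eif2s3x did not, a contrast between the genes that was not tested. Ddx3x had 66.7 FPKM on Xi against 45.2 FPKM in WT (0.56) with a nearly equal Xa level of 78.7 against 81.6 FPKM (-0.05), and its share rose by 10.2 points to 45.9%. Eif2s3x had 24.2 against 20.0 FPKM on Xi (0.27) and 32.4 against 28.1 FPKM on Xa (0.20), which left its share at 42.8% against 41.5%. Among the 22 Xi-expressed genes the median gain was 8.27 points, and 14 gained less than Ddx3x but only 2 less than Eif2s3x. The percentage of 270 genes past the rule was 7.04% on Xi and 0.741% on Xa, and 7.04% gained 10 points or more of share. XistpA, XRR_KO and XRRa_KO share the WT value, so a WT share that is low or high would move all 3 differences alike.

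The XRRb and XRRc lines gave no call for either gene. In XRRb_XiKO Ddx3x had 56.8 FPKM on Xi and 91.8 FPKM on Xa, against 59.7 and 103.0 FPKM in XRRb_XaKO, and Eif2s3x had 34.0 and 41.1 FPKM against 33.8 and 43.3 FPKM. The share differences were 1.54 points for Ddx3x and 1.48 points for Eif2s3x. In XRRc_XiKO Ddx3x had 52.8 FPKM on Xi and 79.2 FPKM on Xa, against 56.5 and 89.6 FPKM in XRRc_XaKO, and Eif2s3x had 28.9 and 37.0 FPKM against 31.5 and 42.4 FPKM. Here the share differences were 1.30 and 1.20 points. Xist on Xi stood at 6.72 FPKM in XRRb_XiKO against 10.9 FPKM in XRRb_XaKO, and at 9.74 FPKM in XRRc_XiKO against 8.35 FPKM in XRRc_XaKO. The log2 changes of both genes on both alleles lay between -0.19 and 0.01 in these lines. Of 261 genes, 1.92% passed the size rule on Xi, 3.07% on Xa and 1.15% the share rule in XRRb, and 2.30%, 2.30% and 1.92% in XRRc.

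With Rad21 degradation Ddx3x fell on Xa in the deposited scaling and its Xi share rose, while no change of Eif2s3x passed a rule. Ddx3x on Xa had 24.4 FPKM with dTAG against 55.2 FPKM with DMSO (-1.16), and on Xi 23.2 against 29.8 FPKM (-0.35). Its share rose by 13.6 points to 48.7%, with 16 of 22 Xi-expressed genes gaining less. Eif2s3x had 9.39 FPKM on Xa with dTAG against 18.3 FPKM with DMSO (-0.92) and 9.77 against 16.4 FPKM on Xi (-0.71), with a share of 51.0% against 47.3%. The reads behind the shares of both genes are unknown and may be few. How precise these share differences are, and whether the genes differ, was not tested. Xist on Xi stood at 35.6 FPKM with dTAG against 28.0 FPKM with DMSO. The totals with dTAG were 0.561 times those with DMSO for Ddx3x and 0.554 times for Eif2s3x.

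The fall of Ddx3x on Xa depended on the scaling of the Rad21 table. The median Xa change of all measured genes was -0.26, and relative to it Ddx3x stood at -0.90 on Xa and -0.10 on Xi, and Eif2s3x at -0.66 and -0.46. At equal median Xa FPKM the Xa change of Ddx3x was -0.75 and its Xi change 0.05, so that the direction on Xi turned. In all, 15.0% of 247 genes fell on Xa (16 rose and 37 fell, against 26 and 19 at equal median Xa FPKM, and 22 and 26 relative to the median change). On Xi 7.29% passed the rule either way (10 rose and 8 fell, against 14 and 5 at equal median Xa FPKM, and 17 and 4 relative to the median change), and 7.53% of 239 genes gained 10 points or more of share, a quantity that such scaling leaves as it is. In bulk samples, fewer cells of a type and less RNA per cell cannot be told apart.

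Ctcf degradation went with lower Xi shares of both genes, past the rule for Eif2s3x. Eif2s3x had 4.80 FPKM on Xi with dTAG against 8.09 FPKM with DMSO (-0.70) and 19.2 against 14.4 FPKM on Xa (0.41). Its total was 24.0 FPKM with dTAG against 22.4 FPKM with DMSO, and its share fell by 16.0 points to 20.0%, the 4th lowest difference of 274 genes. Only 1 of 22 Xi-expressed genes lost more share, and 1 of 22 had a lower Xi change. Ddx3x had 18.3 against 19.9 FPKM on Xi (-0.12) and 48.7 against 43.1 FPKM on Xa (0.17), and its share of 27.3% against 31.5% differed by -4.21 points. The Xi-expressed genes had a median share difference of -0.61 points, and Xist on Xi stood at 18.7 FPKM with dTAG against 18.6 FPKM with DMSO. The median Xa change was 0.23, and relative to it the Xi change was -0.93 for Eif2s3x and -0.35 for Ddx3x, and the Xa change of Ddx3x turned to -0.06. Of 277 genes, 0.722% passed the rule on Xi and 6.14% on Xa, and 2.92% of 274 lost 10 points or more of share. The Ctcf table was matched to its samples by elimination, since its columns name the treatment only.

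**Figure D4:**
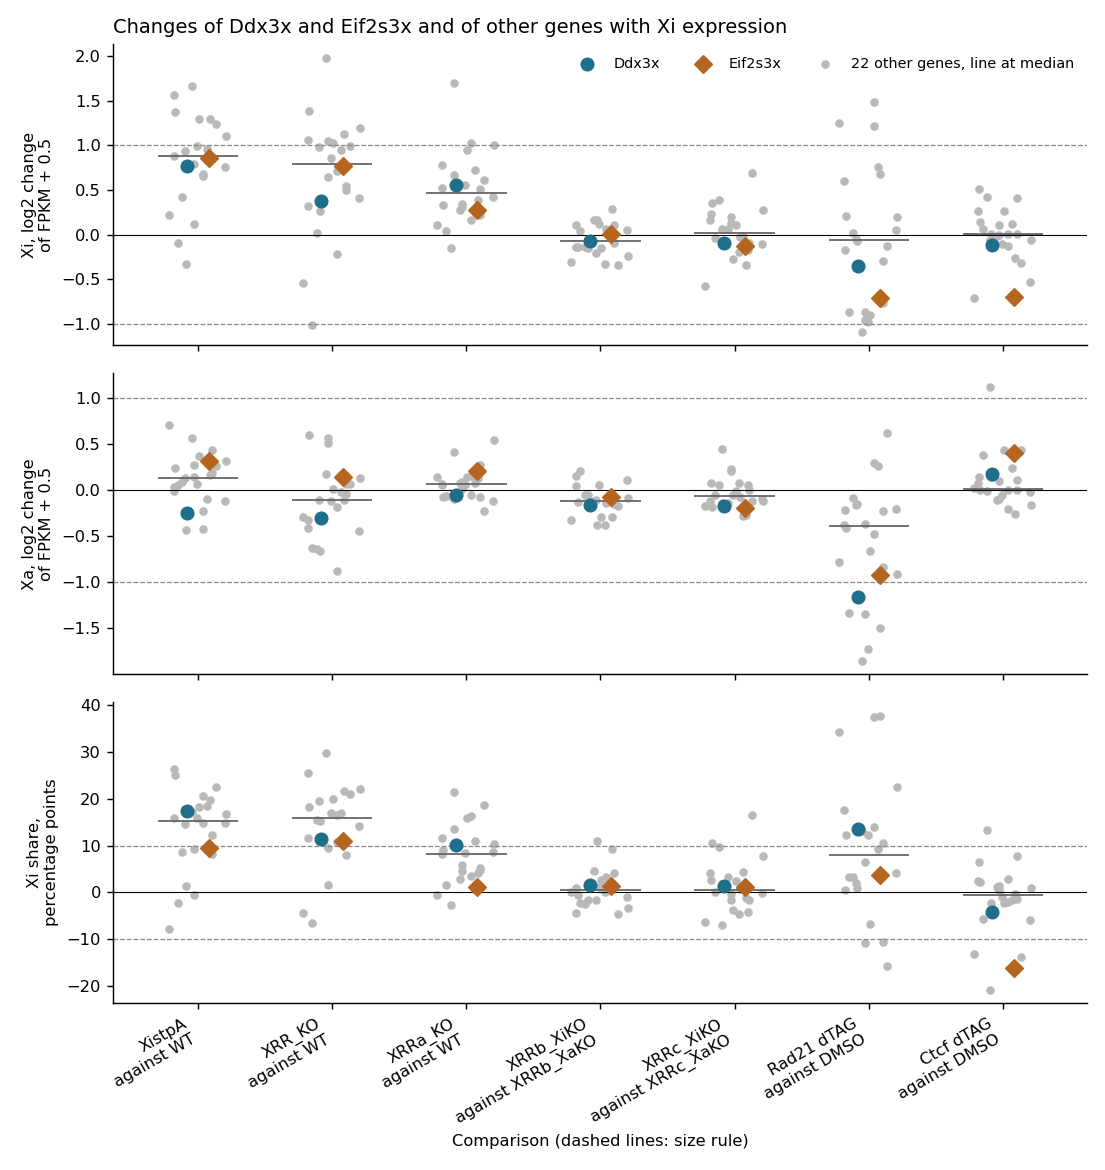
Changes of Ddx3x (blue circles) and Eif2s3x (brown diamonds) in 7 comparisons, on Xi and Xa as log2 change of FPKM + 0.5 and as Xi share in percentage points, with 22 other Xi-expressed genes in grey, their median as a line and the size rules dashed. Among the level changes of the pair, Ddx3x on Xa with Rad21 degradation (-1.16) is the one past the size rule, and the share differences run from -16.0 points (Eif2s3x with Ctcf degradation) to 17.4 points (Ddx3x in XistpA).

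Most other X-linked translation genes stood at or near 0 on Xi, unlike Ddx3x and Eif2s3x. Of 11 genes on that list, 9 were measured in all 4 tables, and Pabpc5 and Rpl39 were not. Rpl39 encodes a ribosomal protein and was nevertheless listed at 0 on both alleles in every group, so a listed 0 is given here as listed, not as absence of RNA. Eif1ax, the X-linked initiation factor that helps select the start codon, had 253 FPKM on Xa in WT and was listed at 0 on Xi in 10 of 12 groups, with a share of at most 0.0640%. Fmr1, a repressor of translation on the ribosome, was above 0 on Xi only in XRR_KO, at 0.122 FPKM, and the termination factor gene Gspt2 in no group. The ribosomal protein gene Rpl10 had an Xi share of at most 0.0352% at 922 to 2387 FPKM on Xa.

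The exceptions were Rps4x and Upf3b, and in some groups Rpl36a. Rps4x, a ribosomal protein gene with near-identical copies elsewhere that make its value uncertain, had an Xi share of 49.6% in XistpA, 49.1% in XRR_KO and 43.6% in XRRa_KO, against 34.8% in WT. Upf3b, a factor of nonsense-mediated decay, rose on Xi to 11.8 FPKM in XistpA and 11.4 FPKM in XRR_KO, against 4.37 FPKM in WT (1.34 and 1.29). With Rad21 degradation it stood at 3.67 FPKM on Xi with dTAG, against a listed 0 with DMSO. Its share with dTAG was 33.3%, a simple fraction, and whether few reads stand behind it was not tested. Rpl36a rose on Xi to 43.4 FPKM in XRR_KO and 11.1 FPKM in XRRa_KO, against 0.0570 FPKM in WT, and to 2.91 FPKM in XRRb_XiKO against 0.0539 FPKM in XRRb_XaKO. It too has near-identical copies. Of the 9 measured genes, those that rose on Xi numbered 1 in XistpA, 2 in XRR_KO, 1 in XRRa_KO, 1 in XRRb_XiKO and 1 with Rad21 degradation, and 0 in XRRc_XiKO and with Ctcf degradation, with none falling. Share gains of 10 points or more numbered 3 in XistpA (Ddx3x, Upf3b and Rps4x), 4 in XRR_KO (the same genes and Eif2s3x), 1 in XRRa_KO (Ddx3x) and 2 with Rad21 degradation (Ddx3x and Upf3b), and Eif2s3x alone lost as much, with Ctcf degradation. Against the percentages of all genes given above, counts this small do not set the list apart.

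Among X genes with a mouse Y partner, expression from Xi was not general. Of 9 such genes, Ddx3x and Eif2s3x included, 8 were measured, and Sox3 was listed at 0 on both alleles in every group. Kdm5c, a histone H3K4 demethylase, was the only other member with a share of 10% or more in any group, at 51.0% in XistpA, 44.2% in XRR_KO and 35.0% in XRRa_KO, against 26.0% in WT. It rose on Xi to 2.76 FPKM in XistpA and 2.80 FPKM in XRR_KO, against 0.763 FPKM in WT. Its share passed the rule in XistpA, rose by 18.2 points in XRR_KO, by 10.6 points in XRRc_XiKO against XRRc_XaKO and by 12.3 points with Rad21 degradation. The histone H3K27 demethylase gene Kdm6a was listed at 0 on Xi throughout, and the ubiquitin-activating enzyme gene Uba1 had a share of at most 0.518%. With Rad21 degradation Rbmx, an RNA-binding protein gene, fell on Xa to 4.22 FPKM with dTAG against 12.4 FPKM with DMSO.

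The genes whose Xi share lay closest to that of Ddx3x or Eif2s3x were found by the mean absolute difference of shares over the 12 groups. They were sought among 225 other genes measured in all tables with a share in every group. This difference measures likeness of level, not whether shares moved together between groups. For Ddx3x they were Nkap at 3.04 points, Cenpi at 3.33, Rps4x at 3.61, Tfe3 at 3.83 and Mmgt1 at 3.89 points. For Eif2s3x they were Mmgt1 at 3.36 points, Mbtps2 at 4.07, Rps4x at 4.72, Cenpi at 4.79 and Nkap at 4.85 points. Ddx3x and Eif2s3x differed from each other by 5.40 points on average, so that Eif2s3x came 9th for Ddx3x and Ddx3x came 6th for Eif2s3x. The median over all genes compared was 39.7 points for Ddx3x and 43.0 points for Eif2s3x, since most genes were near 0 on Xi.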

How the data were processed

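The 32 XEN cell samples were sequenced as unstranded Smart-seq2 libraries of polyadenylated RNA, per the labels' protocols. Trim Galore 0.6.4, HISAT2 2.2.0 and StringTie 2.1.1 and the build mm9 are listed in the submitters' processing notes, with no roles. The step that split reads by allele was not given in the sources used here. In the deposited tables each gene has FPKM values on Xa and Xi, in 24 columns, 1 merged column per group and allele per the file headers, so the limma test planned for single samples was not run. FPKM carries no read total. The ratios of low values in 14 pairs of Xi columns never repeated between genes, which leaves depth unknown. Xi shares did repeat. Of the shares between 0% and 100%, those equal to 3 decimals in another gene made up 11.1% in Rad21 degron with dTAG (6 of 54). They made up 9.86% in XistpA (14 of 142), 8.79% in XRRb_XaKO (8 of 91) and 8.22% in XRR_KO (12 of 146). In Rad21 degron with DMSO they made up 4.17% (2 of 48), and in XRRc_XiKO and both Ctcf groups 0%. In Rad21 degron with dTAG some shares lay on simple fractions, such as 33.3% for Upf3b, 40.0% for Kdm5c and 60.0% for Utp14a. In the same group the Xi level of Eif2s3x was 1.04 times its Xa level to the digits given, likewise a simple fraction. Whether few reads stand behind the Rad21 shares, those of Ddx3x and Eif2s3x included, was not tested.

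Measured genes averaged 1 FPKM or more (Xa plus Xi) over the groups of their table. Members and gene lists were chosen with earlier results of these data known. Genes were named by rule: both members, the translation and Y partner lists, Xist and Tsix, the 3 listed genes on each side of a member, and the 5 nearest in Xi share. The 3 nearest measured genes on each side and the 22 Xi-expressed genes were added after their values were seen. Gene order and promoters came from RefSeq GRCm38.p6, another build than mm9, so positions are given for promoters only. Member transcripts were aligned to all other GENCODE M21 transcripts with minimap2 2.31. That Rps4x and Rpl36a have near-identical copies is background knowledge. Alternatives were pseudocounts of 0.1 and 1, no filter or 5 FPKM, equal median Xa FPKM, changes relative to the median Xa change, share rules of 5 and 20 points, and a pseudocount of 0.5 in the share. Software was Python 3.11.15 with pandas 2.3.3, numpy 2.4.6 and, for figures, matplotlib 3.10.9.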

Additional observations from a re-analysis of the deposited data

How the results depend on the processing

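Over 7 comparisons, 42 changes of Ddx3x and Eif2s3x were recomputed under the alternatives, 238 values in all, and 229 kept their side of the size rule. No called change turned its sign, but 4 uncalled ones did under rescaling. At equal median Xa FPKM the Xi change of Ddx3x with Rad21 degradation was 0.05 (-0.35 as deposited), its Xa change with Ctcf degradation -0.09 (0.17), its Xi change in XRRb_XiKO 0.07 (-0.07), and the Xa change of Eif2s3x there 0.06 (-0.08). All but the Rad21 one also turned relative to the median Xa change. Of the 9 values that changed side, 2 were the Xa level of Ddx3x with Rad21 degradation, which lost its call at -0.75 with equal median Xa FPKM and -0.90 relative to the median Xa change. A share rule of 20 points ended all 6 share calls of the pair, and a rule of 5 points added Eif2s3x in XistpA (9.40 points).

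Counts over all genes moved more, in 41 of 119 cases. In the order XistpA, XRR_KO, XRRa_KO, XRRb, XRRc, Rad21 and Ctcf, the genes past the rule on Xi numbered 37, 46, 19, 5, 6, 18 and 2, and with a pseudocount of 0.1 they were 64, 75, 39, 16, 19, 34 and 12. A pseudocount of 1 gave 11 in XRRa_KO, 3 in XRRb, 11 in Rad21 and 1 in Ctcf, and centring gave 1 in Ctcf. On Xa they numbered 12, 13, 2, 8, 6, 53 and 17, and at a filter of 5 FPKM 2, 8, 0, 2, 3, 34 and 6, where fewer genes were tested. Without a filter, 6 passed on Xa in XRRa_KO and 12 in XRRc. Genes past the share rule numbered 45, 50, 21, 3, 5, 24 and 10, and at 20 points 22, 25, 4, 0, 2, 10 and 2. A rule of 5 points gave 32 in XRRa_KO, 7 in XRRb, 11 in XRRc and 21 in Ctcf. Without a filter the share counts were 32 in XRRa_KO, 9 in XRRb, 11 in XRRc and 39 in Rad21, and at 5 FPKM 2 in XRRc, 13 in Rad21 and 5 in Ctcf. A pseudocount of 0.5 on both alleles gave 6 in XRRb and 21 in Ctcf. Apart from the smaller number of genes tested under a filter and the construction of each rule, the cause was not tested.

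No paired analysis was possible because the deposited columns merge the numbered replicates of each group, 1 column per allele, and for the same reason no sample was left out in turn. The reads behind a share are unknown, which limits every comparison of shares, also at the low Xi values of the Ctcf table. The limit holds likewise for the Rad21 table, where 11.1% of the shares with dTAG (6 of 54) were held by another gene.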

Other observations

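X-linked genes of ribosome assembly also split into genes with and without Xi expression. Las1l, which acts in processing of the large subunit, had an Xi share of 35.8% in XistpA and 48.4% in XRR_KO, against 18.6% in WT. Utp14a, of the small subunit processome, had 51.5% in XistpA and 53.3% in XRR_KO, against 31.7% in WT. Both passed the size rule on Xi in these 2 comparisons, where Ddx3x and Eif2s3x did not. Dkc1, the pseudouridine synthase of ribosomal RNA, had 56.0 FPKM on Xa in WT and a listed 0 on Xi in every group, and Tsr2 was above 0 on Xi only in XRR_KO, at 0.0557 FPKM. With Rad21 degradation 4 of 5 measured genes of this list fell on Xa (3 of them past the rule also relative to the median Xa change). Of all 247 genes 15.0% fell on Xa, 37 against 16 that rose, or 19 against 26 at equal median Xa FPKM. Dkc1 fell to 5.83 FPKM with dTAG against 40.4 FPKM with DMSO. The Xi share of Utp14a rose by 37.8 points.

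On a list of 17 genes known to escape in mouse, 13 were listed and 9 were measured in all tables, Ddx3x, Eif2s3x and Xist included. Of these 9, those with a share gain of 10 points or more numbered 4 in XistpA, 7 in XRR_KO, 2 in XRRa_KO and 4 with Rad21 degradation, where 15.6%, 18.3%, 7.04% and 7.53% of all genes gained as much. Most of all genes were near 0 on Xi. Of the 22 Xi-expressed genes, some of them on this list, 15, 17, 8 and 10 gained as much, so these counts do not set the list apart. Xist, on the same list, had a share difference of -99.8 points in XistpA. With Ctcf degradation 2 of 10 measured genes lost 10 points or more, Eif2s3x and Pbdc1, by -16.0 and -13.2 points, and 5530601H04Rik gained 13.4 points. Of all 274 genes 2.92% lost 10 points or more, and of the 22 Xi-expressed genes 3 did.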
